A study of Mus musculus with 6 samples.

Results

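Kinesins, cytoplasmic dyneins and dynactin subunits were examined in whole-brain RNA from mice with a neuron-specific deletion of the RNA-binding protein HuR (gene Elavl1). Members were all genes whose symbol in the Mouse Gene 2.0 ST annotation is Kif or Klc followed by a digit, or starts with Dync or Dctn, read from probesets with exactly 1 gene symbol. This gave 54 of 22180 genes: 41 kinesin genes, 7 dynein genes and 6 dynactin genes. Where a gene had more than 1 such probeset, the one with the highest mean log2 intensity was used. Klc2, the remaining light chain of kinesin-1, is not analysed here.

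The knockout mice (HuR KO, 3 arrays) were Thy1Cre-ERT2-EYFPHuRf/f, and the control mice (HuR WT, 3 arrays) were Thy1Cre-ERT2-EYFPHuRf/+. Both groups therefore carried a Cre that tamoxifen activates and EYFP, a yellow fluorescent marker, driven in neurons by Thy1, and both were given tamoxifen at 10 and 11 weeks of age. The controls had 1 floxed Elavl1 allele and so are not untouched wild types. Brains came from mice 91 days old, of either sex. The labels name no individual animals, so the spread between arrays may be partly technical. Markers of neurons (7 of 7), astrocytes (6 of 6) and oligodendrocytes (6 of 6 measured) were bright enough to be tested. HuR in cells that do not express the transgene is left in place, and in bulk tissue fewer cells of a type and less RNA per cell cannot be told apart.

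Kinesins and dyneins are ATP-driven motors that walk along microtubules. Most kinesins move towards the plus end, which in an axon points away from the cell body, and cytoplasmic dynein moves towards the minus end and needs the dynactin complex to carry cargo over long distances. Motor neurons, with their long axons, depend on both directions of transport, and mutations of KIF5A, DYNC1H1 and DCTN1 cause motor neuron or axonal disease in people. HuR binds AU-rich and U-rich stretches of transcripts and mostly stabilises them, so the comparison asks whether motor transcripts differed between the HuR KO and HuR WT groups. Another branch of the kinesin family works in mitosis or cytokinesis, and a further one, with dynein 2, in cilia.

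Elavl1 itself had intensities of 295, 289 and 315 on the KO arrays, against 310, 242 and 376 on the WT arrays, a log2 fold change of KO over WT of -0.05 ± 0.15 (SE). The groups overlapped, so the targeted gene checks neither the labels nor the loss of neuronal HuR here. Array medians ran from 13.4 to 13.7 in KO and from 13.4 to 14.6 in WT. The arrays KO 3 and WT 3 stood apart from the other 4: the intensity of Xist, which silences an X chromosome, was 212 and 208 on them, and 4.97 to 5.99 elsewhere. Each group holds 1 such array.

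Of the 54 members, 45 reached the brightness limit, the 25th percentile of the mean level over all 6 arrays, and were among the 16635 genes tested. The 9 that did not were the mitotic and cytokinetic kinesins Kif4, Kif14, Kif15, Kif20a, Kif20b, Kif22, Kif23 and Kif2c, and the pseudogene Kif4-ps. Across the 6 arrays their intensities ran between 5.75 and 9.72. Of 11 mitotic and cytokinetic kinesins only Kif11, Kif18a and Kif18b lay above the limit. Of 9 measured dividing-cell markers, 6 lay above the limit, among them Mki67, a marker of cycling cells, at 16, 14.5 and 12.2 in KO, against 14.9, 14.5 and 15.6 in WT. Top2a, Birc5 and Bub1 lay below it.

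Promoter letters were compared between these branches of the family. The reference table (RefSeq, GRCm38.p6) holds windows from 250 bases before to 50 after each start, for 43 of the 54 members. The letters TTTGAA, the core of the cell cycle homology region found in promoters of mitotic genes, occur on either strand in 9 of the 10 mitotic and cytokinetic kinesins with a window, in 1 of 8 members linked to cilia, and in 20.2% of all 27025 genes in that table. The CCAAT letters, again on either strand, occur in 6 of those 10, in 5 of the 8 and in 41.1% of all genes, and so do not set the branches apart. The letters GTTGCNANG, part of the X-box bound by RFX factors in ciliary genes, occur on either strand in 4 of those 8 (Kif6, Kif9, Kif3b and Dync2h1), in 2 of the 10 mitotic and cytokinetic kinesins (Kif18a and Kif23) and in 5.35% of all genes. Over all 43 members with a window, 8 (18.6%) hold the X-box letters, among them Kif16b and Kif24, which are in neither set. The cilium-linked set was drawn from Kif3a, Kif3b, Kif17, Kif6, Kif9, Kif27, Kif19a, Kif7, Dync2h1 and Dync2li1. The patterns and the cilium-linked set were chosen after member sequences and array values had been seen, and a match describes letters, not a site. No match shares bases with another in the stretches shown. Kif18b also holds TTTGAA, outside its stretch. The following stretches lie before the start, read 5′ to 3′ on the gene's strand with matches in capitals. They are shown because they belong to Kif6 and Kif18b, the tested kinesins whose groups did not overlap, to Kif3b, which had the highest log2 fold change among members tested, and to some relatives in function. Only genes with a match close before the start are shown, so the stretches were picked for their matches. Kif4 and Kif14 were also searched and are left out, since their TTTGAA letters lie elsewhere in the window. Kif18a, a relative of Kif18b, has a window without TTTGAA and is not shown.
Kif18b, chr11:102925130-102925197, minus strand, CCAAT in capitals: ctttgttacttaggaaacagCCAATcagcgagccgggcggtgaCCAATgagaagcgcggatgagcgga
Kif22, chr7:127042421-127042494, minus strand, CCAAT and TTTGAA in capitals as their reverse complements ATTGG and TTCAAA: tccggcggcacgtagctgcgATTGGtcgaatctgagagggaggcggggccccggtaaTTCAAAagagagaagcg
Kif11, chr19:37376317-37376381, plus strand, CCAAT and TTTGAA in capitals as their reverse complements ATTGG and TTCAAA: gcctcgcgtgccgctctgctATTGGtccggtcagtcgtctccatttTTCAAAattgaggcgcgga
Kif6, chr17:49615119-49615167, plus strand, X-box letters in capitals: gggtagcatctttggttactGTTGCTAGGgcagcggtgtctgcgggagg
Kif9, chr9:110476947-110476993, plus strand, X-box letters in capitals: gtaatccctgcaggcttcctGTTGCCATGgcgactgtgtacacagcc
Kif3b, chr2:153291353-153291415, plus strand, X-box letters in capitals: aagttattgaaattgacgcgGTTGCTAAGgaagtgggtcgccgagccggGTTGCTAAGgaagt
Kif3b carries the X-box letters at 2 places in this stretch, and Kif6 and Kif9 at 1 each.

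No motor gene passed the test in either direction. With limma and Benjamini-Hochberg adjustment over all 16635 genes, 0 of the 45 tested members had an adjusted p under 0.05, and 0% of all genes did. At an unadjusted p under 0.05 the count was also 0 of 45, against 1.7% of all genes. Values above 0 were found for 27 members and below 0 for 18, with a median log2 fold change of 0.02 beside 0.01 over all genes tested. Of all 16635 genes, 9124 lay above 0 and 7511 below. Taking all 54 members from the fit without the brightness limit, 33 lay above 0 with a median of 0.01. The intervals rest on the spread between these arrays, which may be partly technical, and fold changes of dim genes are understated. They therefore do not bound the difference between genotypes, and each was read singly, without allowance for the number of members. For all 45 members the 95% confidence interval lay inside a 2-fold change either way, and for 38 it lay inside a 1.5-fold change, the exceptions being Dync1h1, Kif1a, Kif1c, Kif26b, Kif3b, Kif3c and Kif6.

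**Figure D1:**
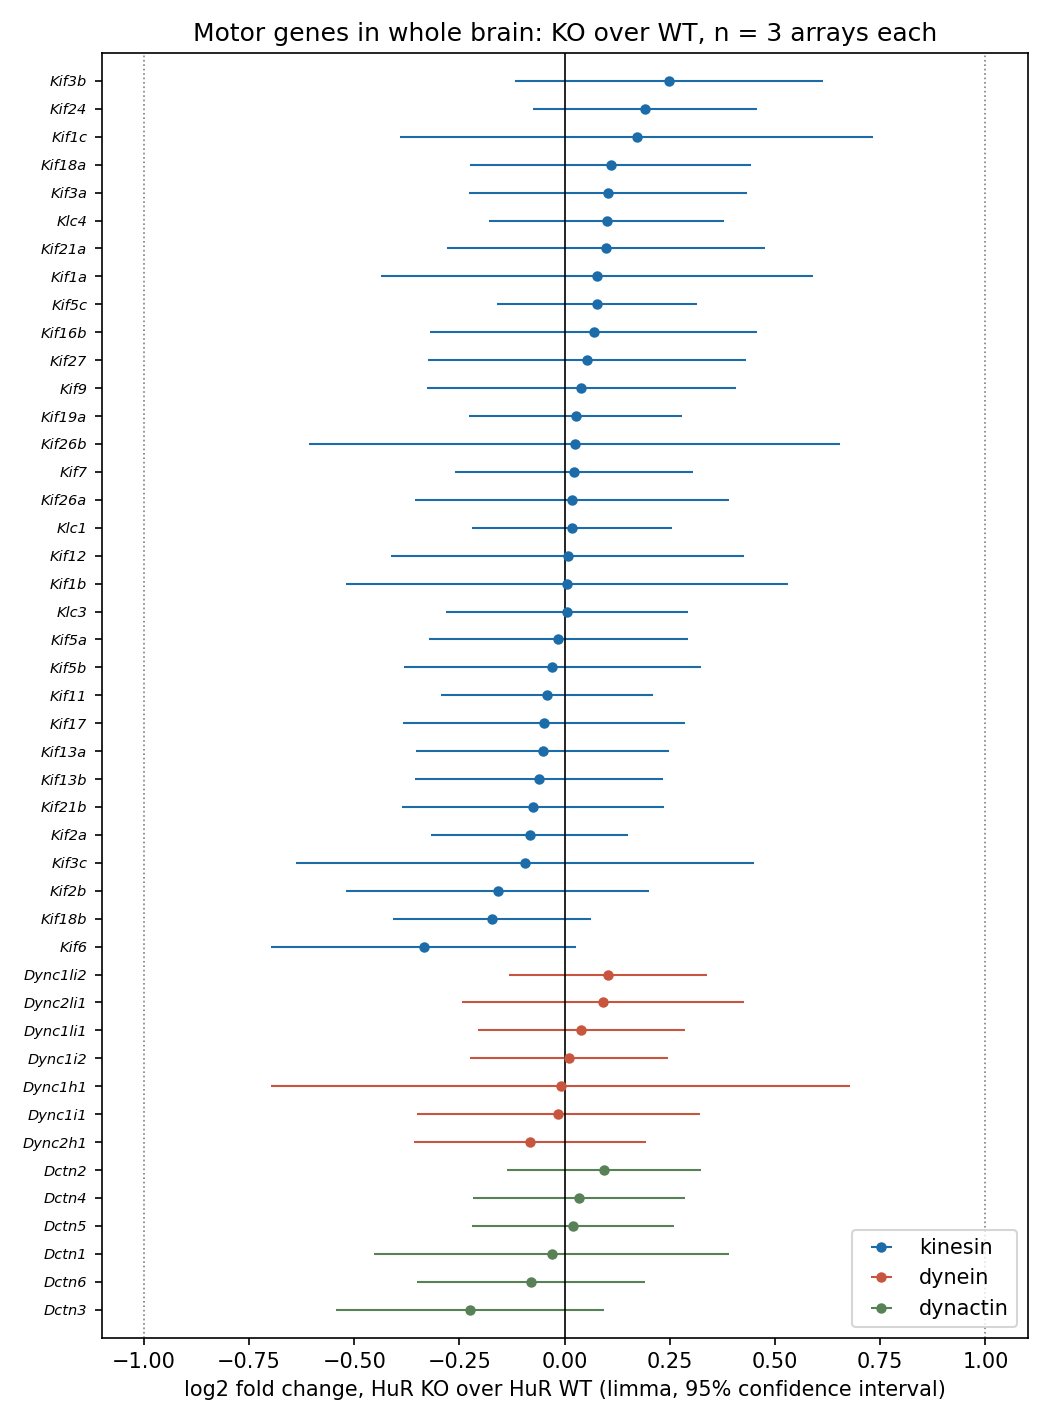
Log2 fold change of HuR KO over HuR WT on the x axis for the 45 tested members, sorted within kinesin, dynein and dynactin genes, with points for limma estimates and bars for 95% confidence intervals (3 arrays a group). Every bar crosses 0, and every bar lies inside the dotted lines at a 2-fold change.

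Kinesin-1 is the main motor of fast anterograde axonal transport. Its 3 heavy chains differ in where they are made: Kif5a and Kif5c mainly in neurons, Kif5b in most cells. Kif5a had intensities of 3250, 3240 and 2420 on the KO arrays, against 3450, 2890 and 2690 on the WT arrays. The groups overlapped, and the log2 fold change was -0.02 ± 0.13 (SE), with an interval from 0.799-fold to 1.22-fold. Kif5b had 1450, 1440 and 1230 in KO, against 1680, 1420 and 1150 in WT. In both genotypes the array numbered 3 was the lowest for Kif5a and Kif5b, and neither gene separated the groups. A second, dim Kif5b probeset (8.74 to 16.7 over the 6 arrays) had a log2 difference of -0.08, beside -0.03 for the one used. Kif5c had 1580, 1560 and 1580 in KO, against 1560, 1400 and 1540 in WT, a log2 fold change of 0.08 ± 0.10 (SE).

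The light chains of kinesin-1 bind cargo and adaptors. Klc1, the main neuronal light chain, had intensities of 1330, 1360 and 1320 in KO, against 1320, 1240 and 1400 in WT, with a log2 fold change of 0.02 ± 0.10 (SE). Klc4 had 53.9, 42.8 and 48.7 in KO, against 43.5, 44.0 and 46.7 in WT, and the KO arrays lay on both sides of the WT arrays. Klc3, a light chain described mainly in testis, had 22.6, 22.2 and 20.6 in KO, against 20.1, 26.2 and 20.3 in WT. None of the 6 measured kinesin-1 genes had a fold change whose interval reached 1.5-fold.

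Kinesin-3 motors carry vesicles quickly over long distances. Kif1a, which carries synaptic vesicle precursors, had intensities of 1400, 1390 and 1930 on the KO arrays, against 1350, 1220 and 1930 on the WT arrays. Kif1b, which carries mitochondria and synaptic vesicle precursors, had 1100, 1000 and 1500 in KO, against 1010, 1020 and 1560 in WT. Both genes were highest on KO 3 and WT 3, and their KO and WT values interleaved, with log2 fold changes of 0.08 ± 0.22 and 0.01 ± 0.23 (SE). Kif1c, a more widely made relative that carries dense-core vesicles, ran the other way over the array numbers, with 272, 291 and 177 in KO, against 260, 207 and 170 in WT. Its log2 fold change of 0.17 had a standard error of 0.24; it was 0.41 without KO 3 and 0.001 without WT 3, so the estimate turned on single arrays. The endosomal and membrane carriers Kif13a, Kif13b and Kif16b had log2 fold changes of -0.05, -0.06 and 0.07.

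Kif3b, of kinesin-2, had the highest log2 fold change among members tested. Of the 4 kinesin-2 genes, 2 lay above 0 and 2 below, with a median of 0.03. Kif3a and Kif3b pair to form the motor of heterotrimeric kinesin-2, which builds cilia and carries axonal cargo. Kif3b had intensities of 90.9, 75.8 and 99.6 in KO, against 71.8, 60.1 and 88.4 in WT. The KO array was the higher one at each replicate number, but KO 2 lay below WT 3, so the groups overlapped. The log2 fold change was 0.25 ± 0.16 (SE) (fold 1.19, interval 0.922 to 1.53) and it was 0.14 without WT 2 and 0.37 without WT 3. The limma p was 0.154 unadjusted and 1 adjusted. With arrays of the same replicate number treated as pairs, Kif3b was the 1 member under an unadjusted p of 0.05, at 0.0314, where 4.85% of all genes were, and its adjusted p was 0.984. Its partner Kif3a had 343, 349 and 452 in KO, against 332, 309 and 405 in WT, a log2 fold change of 0.10 ± 0.14 (SE). Kif3c, a neuronal member, had 346, 281 and 495 in KO, against 331, 337 and 502 in WT, at -0.09 ± 0.23 (SE). Kif17, a dendritic motor for NMDA receptor vesicles, had 49.5, 43.7 and 57.6 in KO, against 44.7, 51.6 and 57.8 in WT, with full overlap.

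Among kinesins that shape microtubules, Kif2a, a depolymerase that prunes axon branches, had 319, 304 and 296 in KO, against 318, 311 and 330 in WT, a log2 fold change of -0.08 ± 0.10 (SE). Kif21a and Kif21b, which restrain microtubule growth, had log2 fold changes of 0.10 ± 0.16 and -0.08 ± 0.13 (SE). Kif24, which acts on the centriole and holds back cilium assembly, had 13.6, 13.5 and 11.1 in KO, against 11.0, 11.2 and 11.7 in WT. KO 1 and KO 2 were above every WT array and KO 3 was among them. Its log2 fold change was 0.19 ± 0.11 (SE), with an unadjusted limma p of 0.133 and an adjusted p of 1. Without both arrays numbered 3 it was 0.30, at an adjusted p of 0.931, and with a pseudocount of 16 in place of 1 it was 0.09. Kif2b, another depolymerase, was at -0.16 ± 0.15 (SE), with 6.69, 9.83 and 9.32 in KO, against 10.1, 9.53 and 10 in WT. The Kif24 intensities lie at or under the array medians, and those of Kif2b well under them. Kif7, a regulator of Hedgehog signalling at the tip of the cilium, was at 0.02, beside -0.09 for a second probeset of the gene, so its sign depended on the probeset. Kif12, Kif26a and Kif26b were at 0.01, 0.02 and 0.02.

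Kif6 had the smallest p among the 45 tested members. It belongs to kinesin-9, and in mice Kif6 is needed for the motile cilia of ependymal cells. Intensities were 27.8, 31.2 and 29.6 on the KO arrays, against 47.5, 33.4 and 33.6 on the WT arrays. Every KO array lay below every WT array, and WT 1 stood well above the rest. The log2 fold change was -0.34 ± 0.16 (SE) (fold 0.793, interval 0.617 to 1.02), at an unadjusted limma p of 0.0658 and an adjusted p of 1. Without WT 1 the difference was -0.17, and with arrays centred on their median the groups overlapped. Other genes of motile cilia gave these values: Kif9, the other kinesin-9, had 21.4, 25.3 and 23.2 in KO, against 26.4, 25 and 18.1 in WT, Kif27 had a log2 fold change of 0.05 and Kif19a one of 0.03. Of 8 ciliated ependyma markers 3 lay above 0 and 5 below, with a median of -0.04. Rsph1, a radial spoke protein of motile cilia, had the smallest p of these markers, at -0.32 with an unadjusted limma p of 0.0571. Cfap43, next in p, went the other way, at 0.16 with an unadjusted limma p of 0.183. The summed intensity of the 8 markers ran from 192 to 270 in KO and from 224 to 284 in WT. The ciliary transcription factor Foxj1 had 33.5, 32.9 and 31.0 in KO, against 31.9, 32.0 and 33.1 in WT. The part of ependymal content in the Kif6 value was not tested.

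Kif18b, a mitotic kinesin-8 that trims astral microtubules, was the other tested kinesin without overlap. It had 15.1, 15.9 and 15 in KO, against 16.4, 18.5 and 18.7 in WT. Its log2 fold change was -0.17 ± 0.10 (SE), at an unadjusted limma p of 0.127 and an adjusted p of 1, and -0.09 with a pseudocount of 16. These intensities are close to the array medians. Its relative Kif18a, which moves chromosomes to the spindle middle, had 13.8, 18.7 and 16.4 in KO, against 15.6, 14.3 and 16.2 in WT, at 0.11. Kif11, which slides spindle poles apart, was at -0.04. The dividing-cell markers had a median of -0.02 over 6 tested genes, with a summed intensity of 96.6 to 99.4 in KO and 91.2 to 110 in WT over 9 measured.

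Below the brightness limit, Kif4, a chromosome-bound motor of mitosis, had 7.80, 7.74 and 7.30 in KO, against 6.49, 6 and 5.75 in WT. All KO arrays lay above all WT arrays. In the fit without the limit its log2 fold change was 0.31 ± 0.09 (SE), at an unadjusted limma p of 0.0102, where 2.1% of all genes were under 0.05, and an adjusted p of 1. The transcribed pseudogene Kif4-ps had 7.98, 7.21 and 7.37 in KO, against 6.77, 6.84 and 6.5 in WT, likewise without overlap. Whether the Kif4 and Kif4-ps probesets read the same transcripts was not tested, so these may be 1 signal, and both lie well under the array medians.

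**Figure D2:**
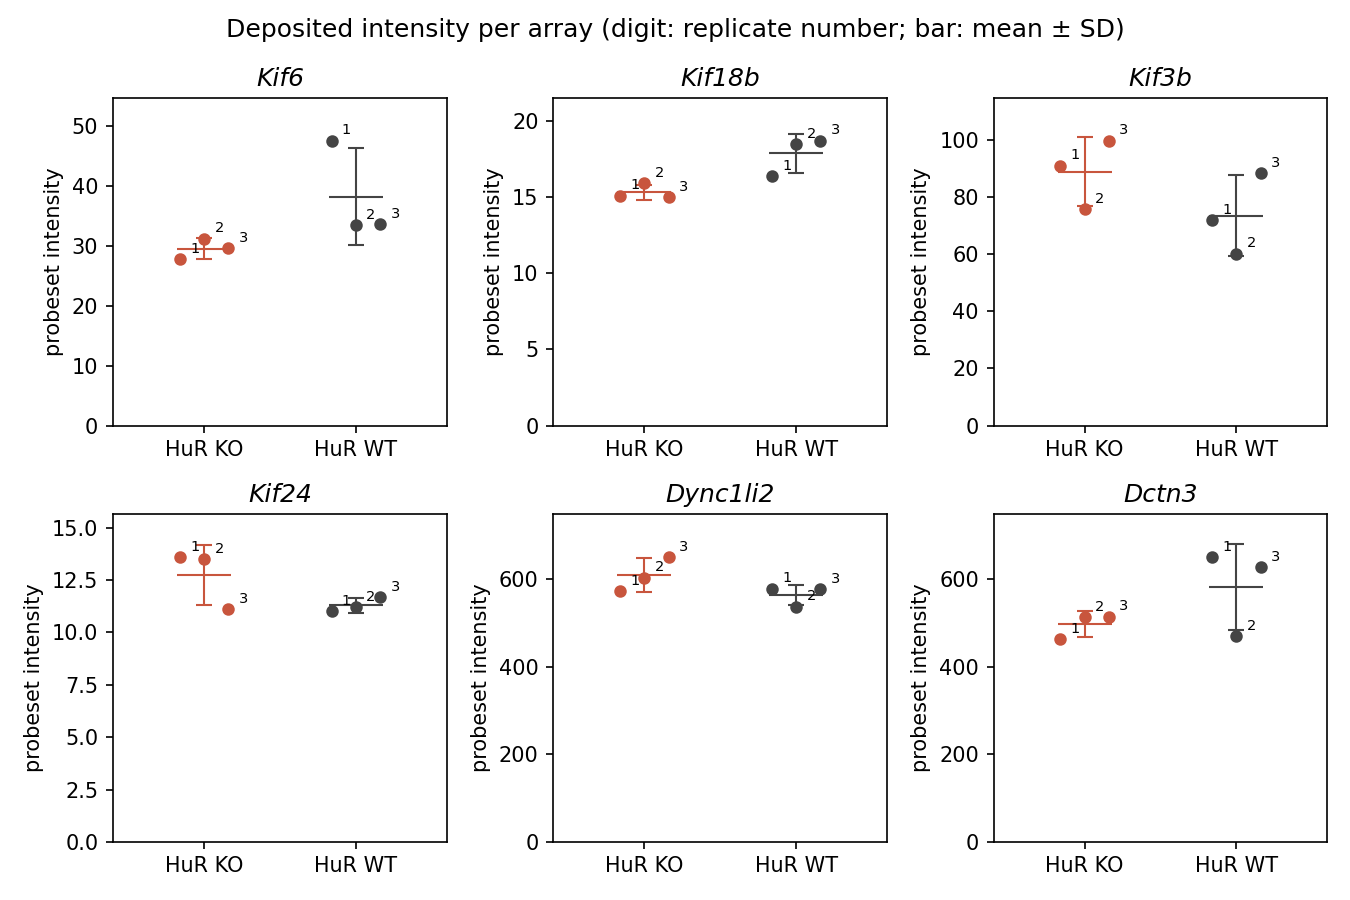
Deposited probeset intensity (y axis, linear) of 6 members on each array, HuR KO left and HuR WT right, with digits for replicate numbers and bars for mean ± SD (n = 3). Kif6 and Kif18b show no overlap, with WT 1 at 47.5 for Kif6, and the KO and WT points of Kif3b, Kif24, Dync1li2 and Dctn3 interleave on this scale.

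In cytoplasmic dynein 1, the heavy chain Dync1h1 holds the motor. Its intensities were 561, 539 and 977 on the KO arrays, against 545, 568 and 963 on the WT arrays. KO 3 and WT 3 were far above the other 4 arrays, and the KO and WT values were close to each other within each of these sets. The log2 fold change was -0.01 ± 0.30 (SE), so the interval for Dync1h1, from 0.617-fold to 1.6-fold, was the widest among the members. The estimate ran from -0.29 without KO 3 to 0.25 without WT 3. The intermediate chains, which join the motor to dynactin, had overlapping groups: Dync1i1 had 247, 259 and 337 in KO, against 251, 274 and 308 in WT, and Dync1i2 had 350, 384 and 406 in KO, against 376, 365 and 379 in WT. Their log2 fold changes were -0.02 ± 0.14 and 0.01 ± 0.10 (SE).

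The light intermediate chains of dynein 1 bind cargo adaptors. Dync1li2 had 572, 603 and 650 in KO, against 578, 537 and 576 in WT. After quantile normalization its log2 levels were 9.25 ± 0.08 in KO and 9.15 ± 0.02 in WT (SD, n = 3 each), and all KO arrays then lay above all WT arrays. With values as deposited, or with arrays centred on their median, the groups overlapped. The log2 fold change of Dync1li2 was 0.10 ± 0.10 (SE), at an unadjusted limma p of 0.341 and an adjusted p of 1, and 0.06 without KO 3. Dync1li1 had 348, 351 and 409 in KO, against 356, 331 and 374 in WT, at 0.04 ± 0.11 (SE). In dynein 2, which returns cargo along the cilium, Dync2h1 had 92.1, 92.7 and 117 in KO, against 102, 98.6 and 110 in WT, and Dync2li1 had 77.9, 76.3 and 74.4 in KO, against 84.0, 68.8 and 59.3 in WT. Over the 7 dynein genes, 4 lay above 0 and 3 below, with a median of 0.01.

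The dynactin genes gave 3 values above 0 and 3 below. Dctn1 encodes the long arm that grips microtubules and dynein, and it had intensities of 254, 226 and 325 in KO, against 234, 238 and 339 in WT, a log2 fold change of -0.03 ± 0.18 (SE). Dctn2, the shoulder subunit dynamitin, had 749, 812 and 781 in KO, against 714, 709 and 754 in WT, at 0.09 ± 0.10 (SE). Only KO 1 kept the Dctn2 groups from separating, since it lay just below WT 3. Dctn3, another shoulder subunit, had the smallest p of the complex, with 464, 514 and 515 in KO, against 651, 470 and 627 in WT. WT 1 and WT 3 were above every KO array and WT 2 was among the KO arrays. The Dctn3 log2 fold change was -0.22 ± 0.14 (SE), at an unadjusted limma p of 0.141 and an adjusted p of 1. It was -0.15 without WT 1 and -0.35 without WT 2. Of the pointed-end subunits, Dctn4 had 692, 690 and 728 in KO, against 684, 625 and 751 in WT, Dctn5 had 620, 619 and 578 in KO, against 577, 603 and 597 in WT, and Dctn6 had 205, 203 and 191 in KO, against 228, 201 and 190 in WT. The median over the 6 dynactin genes was -0.01, and it was 0.05 with arrays centred on their median and 0.06 without WT 3.

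Few motor genes had groups that did not overlap, and the counts lay near the background. KO lay wholly above WT for 1 of 45 members (Dync1li2), where 3.14% of all genes did so, and wholly below for 2 of 45 (Kif6 and Kif18b), where 2.55% did. Oligodendrocyte markers had 6 of 6 tested values below 0 (median -0.12), none past the adjusted threshold. After quantile normalization, Mog, Cldn11 and Opalin of these 6 lay wholly below WT in KO, where 2.55% of all genes did. As deposited, Mog (292 on KO 2 and KO 3, 288 on WT 2) and Cldn11 (621 on KO 2, 612 on WT 2) overlapped. Mag, Mobp and Cnp overlapped either way, at log2 fold changes of -0.06, -0.02 and -0.05. Opalin had intensities of 121, 111 and 137 in KO, against 241, 149 and 161 in WT, a log2 fold change of -0.58 ± 0.18 (SE) at an unadjusted limma p of 0.0132 and an adjusted p of 1. The summed intensity of the oligodendrocyte markers was 2980 to 3140 in KO and 2940 to 3560 in WT. Neuronal markers had 7 of 7 values above 0, all at 0.09 or less, and astrocyte markers 6 of 6, with a median of 0.08. Among all 16635 genes tested, 9124 lay above 0 and 7511 below. The part of these cell types in the motor gene values was not tested.

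Most motor genes differed more between the arrays numbered 3 and the rest than by genotype, as did most genes. These arrays were set apart after they had been seen to differ, so the comparison with genotype is not on equal terms. The difference between KO 3 and WT 3 together and the other 4 arrays was larger in size than the KO and WT difference for 33 of 45 members (73.3%), and for 72.4% of all genes tested. The median sizes of these log2 differences were 0.15 and 0.06 for the members, beside 0.17 and 0.07 for all genes. Both arrays numbered 3 lay above the other 4 for 16 members (35.6%) and below them for 5 (11.1%), where 23.4% and 20.6% of all genes did so. The members with the largest gaps were Dync1h1 at 0.81, Kif26b, a kinesin without motor activity, at 0.68, Kif3c and Kif1b at 0.59 each, Kif1a at 0.57 and Dctn1 at 0.43 upward, and Kif1c at -0.62 downward. Neuronal markers lay above on both arrays numbered 3 for 6 of 7 genes, with a median gap of 0.45. Endothelial markers did so for 4 of 4 tested genes, with a median gap of 1.10, while microglial markers lay below for 4 of 5 (-0.22). Astrocyte markers lay below for 3 of 6 (-0.22). Ciliated ependyma markers lay below for 3 of 8 and above for 1 (-0.17). The part of these cell types in the motor gene gaps was not tested. Without both of these arrays, 23 of 45 members lay above 0 between KO and WT, with a median of 0.003.

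**Figure D3:**
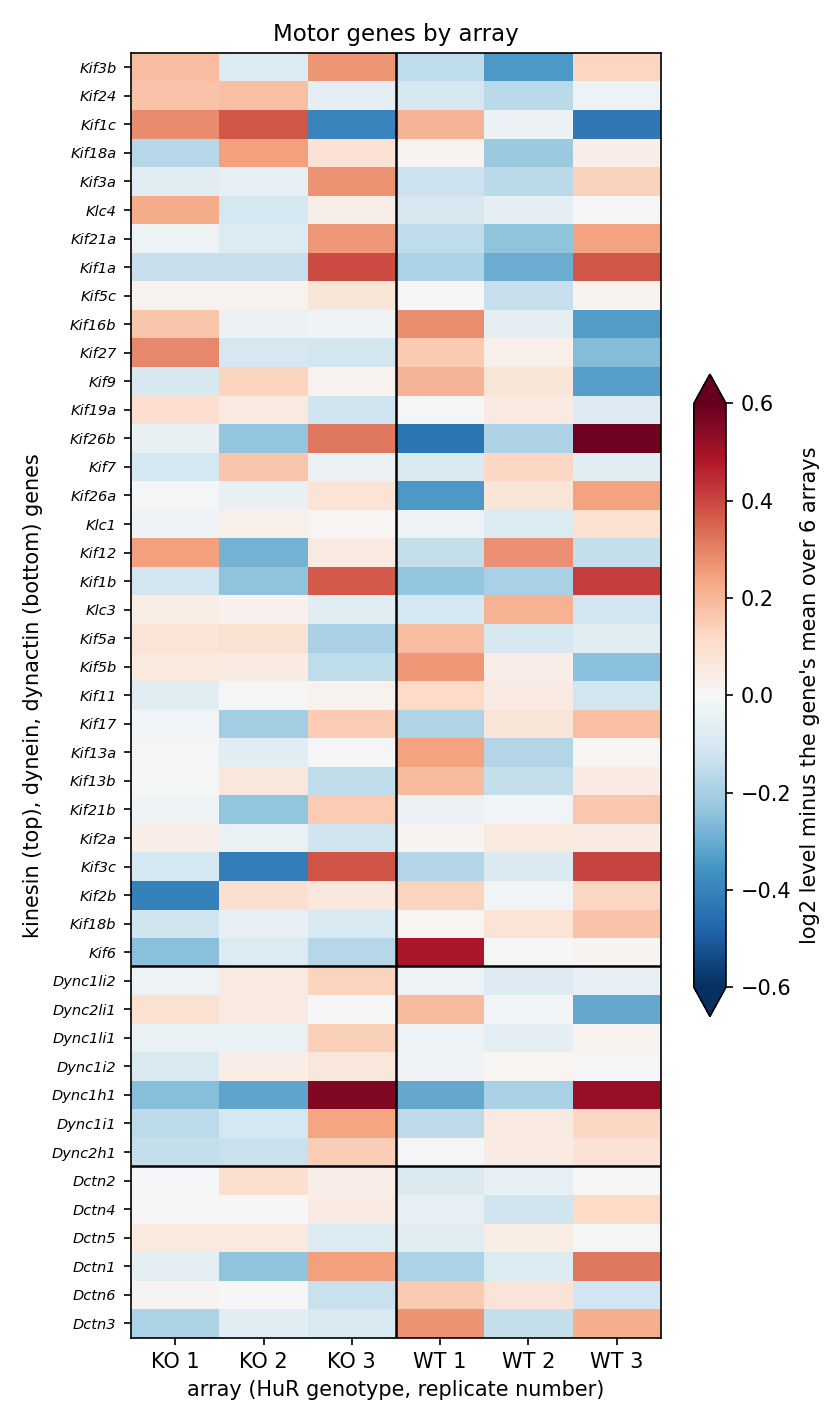
Log2 level of each of the 45 tested members minus its mean over the 6 arrays (colour; red above, blue below), with HuR KO arrays left of the line and HuR WT arrays right, and kinesin, dynein and dynactin genes from top to bottom. The columns KO 3 and WT 3 share their strongest colours, as for Dync1h1, Kif1a, Kif1b, Kif3c and Kif1c. Rows are sorted within each class by log2 fold change of KO over WT, highest at the top. A lean between the left and right sides at the ends of a class therefore follows from the order.

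**Figure D4:**
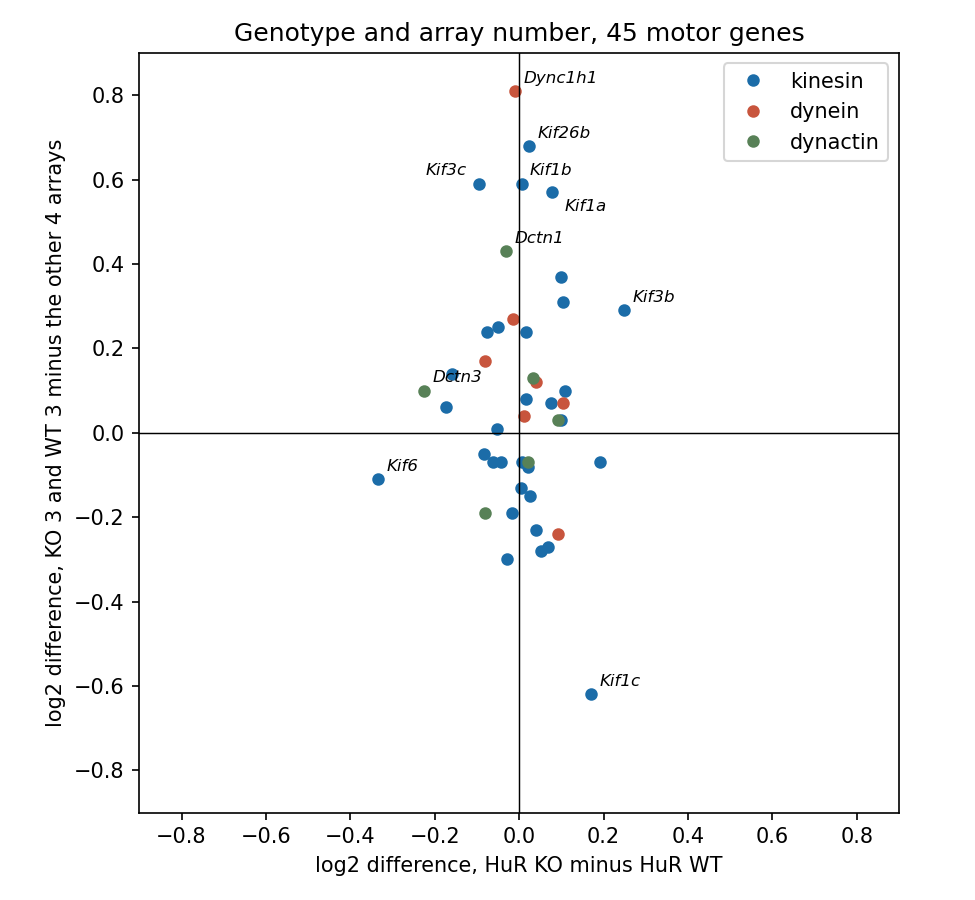
Each point is 1 tested member, with the log2 difference of HuR KO minus HuR WT on the x axis and that of KO 3 and WT 3 minus the other 4 arrays on the y axis, on equal scales. The points spread from -0.62 to 0.81 along the y axis and from -0.34 to 0.25 along the x axis.

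Partners of the motors that the symbol rule leaves out were described in the same way. Of 9 measured light chains and actin-like or capping subunits of dynein and dynactin, 5 lay above 0 and 4 below (median 0.002), and none passed the adjusted threshold. Lowest in p were the capping subunit Capza1 and the dynein light chain Dynlrb2, with log2 fold changes of 0.14 ± 0.11 and 0.15 ± 0.16 (SE). Of 17 measured dynein regulators and activating adaptors, 9 lay above 0 and 8 below (median 0.01), and none passed. Hook2, which links dynein to centrosomal cargo, had 18.0, 25.8 and 29.2 in KO, against 30.8, 37.9 and 30.5 in WT, without overlap. Hook2 and Ninl (-0.15) were the 2 of 17 that lay wholly below WT in KO, where 2.55% of all genes did. The Hook2 log2 fold change was -0.45 ± 0.19 (SE), at an unadjusted limma p of 0.0472, where 1.7% of all genes were under 0.05, and an adjusted p of 1. The adaptor Bicdl1 had 53.4, 52.4 and 57.3 in KO, against 44.1, 39.0 and 53.5 in WT, at 0.25 ± 0.13 (SE), with WT 3 alone reaching the KO range. Its unadjusted p was 0.0943, and 0.0427 with the replicate block, where 4.85% of all genes were under 0.05. Pafah1b1, which encodes the dynein regulator LIS1, had a log2 fold change of -0.001 ± 0.10 (SE).

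Of 21 kinesin adaptors and cargo linkers, 13 lay above 0 and 8 below (median 0.01), and none had an unadjusted p under 0.05. The scaffold Mapk8ip2 had 489, 504 and 577 in KO, against 423, 387 and 565 in WT, at 0.19 ± 0.15 (SE), and Apba1, which couples Kif17 to its vesicle cargo, was at 0.13 ± 0.11 (SE). Kifap3, the third subunit of heterotrimeric kinesin-2 beside Kif3a and Kif3b, had 821, 826 and 873 in KO, against 808, 842 and 857 in WT, at 0.004 ± 0.10 (SE). The minus-end directed Kifc2 and Kifc3 were at 0.14 and -0.18, with standard errors of 0.13 and 0.14.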

How the data were processed

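Total brain RNA of 6 samples was measured on Mouse Gene 2.0 ST arrays, per the labels. The authors deposited linear intensity values for 41340 probesets, made with MAS5 per the submitters' processing notes; no source used here gives its version, background correction or scaling target. Intensities were taken as log2(intensity + 1) and quantile normalized, because array medians differed by 0.12. The platform annotation gave 23521 probesets with 1 symbol, 1814 with several, and 22180 genes (1 probeset each, highest mean). Genes whose mean level was under the 25th percentile were not tested, and the other 16635 were tested with limma 3.58.1 in R 4.3.3 (lmFit, eBayes, two-sided, Benjamini-Hochberg over all genes tested), and fold changes understate those of dim genes. Alternatives numbered 16. The number of arrays limits precision. The reported fit tested 45 of the 54 members, and the fit without the brightness limit used all 54. Members, lists, alternatives and the naming rule were chosen with earlier results of these data known. The rule named kinesin-1, the main neuronal kinesins, all dynein and dynactin members, other members without overlap or with the 3 smallest p values, and 2 genes a list; other genes are named as background. The reported fit used no pairing. Replicate numbers were taken as pairs only in the replicate block, from a check and not a label. Deviations from group means correlated at 0.31, 0.37 and 0.75 for numbers 1, 2 and 3. KO 1 correlated better with WT 2 (0.37) and KO 2 with WT 1 (0.40). Deviations within a group sum to 0, so 2 arrays numbered 3 that stand apart together make numbers 1 and 2 correlate across groups. The check therefore cannot show that numbers 1 and 2 are pairs. Promoter patterns were chosen after sequences had been seen. The procedure was tested on simulated data. Plots used matplotlib 3.10.9, and 0 columns of values were unused.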

Additional observations from a re-analysis of the deposited data

How the results depend on the processing

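Under all 16 alternatives 0 members and 0 of all genes passed an adjusted limma p of 0.05 (282 genes and 0 members at an unadjusted p under 0.05 in the reported fit). The medians of kinesin, dynein and dynactin genes moved by less than the spread between arrays, except dynactin at 0.048 with arrays centred on their median and 0.059 without WT 3. Without 1 array the medians ran from -0.008 to 0.027 for kinesins, from -0.022 to 0.068 for dyneins and from -0.04 to 0.059 for dynactin. Members at an unadjusted p under 0.05 numbered 1 without the brightness filter (Kif4), 2 with array weights (Kif24 and Kif6), 1 with the replicate block (Kif3b) and 1 without both arrays numbered 3 (Kif24). Leaving out 1 array gave 0 to 2 members, with Dctn3 and Kif6 without WT 2, and Kif3b and Kif6 without WT 3. All genes at an unadjusted p under 0.05 numbered 465 without the filter, 89 in the upper 50% of genes, 755 with array weights, 806 with the replicate block, 854 without both arrays numbered 3, and 162 (without KO 2) to 573 (without WT 3) when 1 array was left out, with 185 without KO 1 and 463 without KO 3; the cause was not tested, beyond the number of genes tested in the first 2. Members without overlap (3 of 45, 6.67%, against 5.7% of all genes) numbered 1 with arrays centred on their median (Kif18b; 2.22% against 6.11%), 5 without the filter, which adds Kif4 and Kif4-ps (9.26% against 6.79%), and 18 without both arrays numbered 3 (40% against 34.7%). With 1 array fewer they numbered 5 (without KO 2, 11.1% against 11%) to 14 (without WT 3, 31.1% against 21.2%), 6 without WT 1 (13.3% against 13.5%), 7 without KO 1 (15.6% against 11.3%) or WT 2 (15.6% against 11.8%) and 8 without KO 3 (17.8% against 18.1%), where fewer samples make overlap rarer. With a pseudocount of 16, Kif24 was at 0.09 and Kif18b at -0.093. Signs turned for 9 of 45 members with centring, 4 with values as deposited and 13 without WT 3, all uncalled. The replicate block changed no adjusted call.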
